A study of Mus musculus with 6 samples.

Results

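The muscle excitation-contraction coupling genes described here are *Ryr1*, *Cacna1s*, *Cacng1*, *Casq1*, *Atp2a1*, *Sln*, *Jph1*, *Jsrp1*, *Stac3* and *Pvalb*. They were taken by symbol from a table of 53342 genes measured by RNA sequencing in mouse dental pulp, and each of the 10 had a row. The table held 3 wild-type (WT) samples, numbered 2, 4 and 5, and 3 samples from mice homozygous for loss of *Mmp13*, numbered 1, 2 and 6. MMP13 is a collagenase of mineralised tissues, and in *Mmp13*-/- mice it is missing from the whole body rather than from the pulp alone. All mice were C57BL/6, 3 months old and, per the study's methods, male, and the comparison asked how loss of MMP13 altered gene expression in the pulp. Each sample was an independent biological sample of whole, unsorted pulp, with the number of animals in it not stated. The sample labels name molars and column-purified RNA while the methods name incisors and a phenol-based extraction. In the sample titles, molars are named for WT only, and the *Mmp13*-/- titles name no tooth. Which teeth were used for each genotype is therefore not settled here.

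Excitation-contraction coupling is the chain of events by which a skeletal muscle fibre turns an action potential into a release of calcium. In the transverse tubule the voltage sensor Cav1.1 moves with the membrane potential and opens the ryanodine receptor of the facing sarcoplasmic reticulum, and calcium leaves its store to reach the contractile filaments. A pump then returns the calcium to the store. These proteins are characteristic of striated muscle and are not known as products of odontoblasts, the dentin-forming cells that line the pulp.

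Of the 10 genes, 8 were lower in *Mmp13*-/- pulp, by 3.03- to 4.54-fold, and these covered every step from the voltage sensor to the calcium pump. *Sln*, which encodes an inhibitor of the pump, was higher at a very low level, and *Pvalb*, which encodes a calcium buffer, did not pass the test. A gene was called when the edgeR quasi-likelihood test gave a Benjamini-Hochberg adjusted p under 0.05 and a change over 2-fold. By this rule 30.1% of the 24534 genes tested were called, 9.68% as lower and 20.4% as higher in *Mmp13*-/-. The median log2 fold change was -1.89 over the 10 genes and 0.10 over all genes tested. In whole tissue, fewer muscle cells and less RNA per muscle cell cannot be told apart.

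The promoters of these genes are shown because 4 of the 5 genes with a window available moved together. RefSeq windows on GRCm38.p6, from 250 bases before to 50 after an annotated start, were matched by symbol for 5 of the 10 genes, with 6 windows in all. Each was searched on both strands for CAGCTG, a form of the E-box that myogenic factors of the MyoD family are known to bind, and for the MEF2 consensus, the AT-rich site of another family of muscle factors. CAGCTG is its own reverse complement and does not overlap a MEF2 match here. Over all 32851 windows of this length, 16.3% held CAGCTG and 3.19% held a MEF2 match. Among the 6 windows, 3 held CAGCTG and 1 held a MEF2 match. These are the windows with a match, 5′ to 3′ on the strand of the gene, with the matched letters in capitals. *Cacna1s* (chr1:136052561-136052860, plus strand), *Casq1* (chr1:172219846-172220145, minus strand) and *Atp2a1* (chr7:126463024-126463323, minus strand) carry CAGCTG 123, 195 and 55 bases before the start, and *Pvalb* (chr15:78206351-78206650, minus strand) carries the MEF2 match 180 bases before it.
Cacna1s: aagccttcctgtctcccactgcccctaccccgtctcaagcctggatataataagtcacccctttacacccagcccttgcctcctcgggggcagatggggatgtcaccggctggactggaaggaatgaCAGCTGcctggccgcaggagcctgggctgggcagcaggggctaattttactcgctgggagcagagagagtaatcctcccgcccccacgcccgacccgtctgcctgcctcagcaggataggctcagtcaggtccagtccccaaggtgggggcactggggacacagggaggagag
Casq1: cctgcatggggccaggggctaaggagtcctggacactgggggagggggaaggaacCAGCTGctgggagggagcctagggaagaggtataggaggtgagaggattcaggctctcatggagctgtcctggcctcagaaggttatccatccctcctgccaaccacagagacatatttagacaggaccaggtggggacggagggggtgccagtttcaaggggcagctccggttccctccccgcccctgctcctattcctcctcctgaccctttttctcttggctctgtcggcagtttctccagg
Atp2a1: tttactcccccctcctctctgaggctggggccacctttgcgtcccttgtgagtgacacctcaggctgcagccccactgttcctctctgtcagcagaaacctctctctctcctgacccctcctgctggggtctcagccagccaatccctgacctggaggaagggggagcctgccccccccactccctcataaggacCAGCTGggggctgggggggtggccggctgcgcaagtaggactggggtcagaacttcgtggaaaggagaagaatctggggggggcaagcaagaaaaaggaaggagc
Pvalb: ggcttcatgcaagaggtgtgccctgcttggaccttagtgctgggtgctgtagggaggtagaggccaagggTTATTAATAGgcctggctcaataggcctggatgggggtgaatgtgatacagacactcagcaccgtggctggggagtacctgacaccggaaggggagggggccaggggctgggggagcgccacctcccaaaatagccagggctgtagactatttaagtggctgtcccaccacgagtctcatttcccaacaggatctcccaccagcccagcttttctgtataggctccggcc
The *Ryr1* window, which held neither, is given for comparison with them (chr7:29125102-29125401, minus strand).
Ryr1: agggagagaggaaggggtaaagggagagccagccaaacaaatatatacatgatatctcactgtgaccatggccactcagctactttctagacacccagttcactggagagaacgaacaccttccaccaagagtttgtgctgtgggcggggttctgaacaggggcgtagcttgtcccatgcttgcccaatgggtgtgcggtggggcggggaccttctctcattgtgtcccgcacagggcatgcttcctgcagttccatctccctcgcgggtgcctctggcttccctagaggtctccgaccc
The other *Pvalb* window (chr15:78204188-78204487) held neither. A match of letters is a description of the window and does not show that a factor binds there.

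The samples held 21561236 to 29980121 estimated counts each. *Mmp13* itself was at 36.8, 39.1 and 30.1 CPM (a gene's count relative to all counts of its sample, scaled with edgeR's TMM factors) in WT samples 2, 4 and 5 and at 0.322, 1.10 and 2.33 CPM in *Mmp13*-/- samples 1, 2 and 6, 31.1-fold lower. *Mmp13*-/- sample 6 stood apart. Genes matching the major satellite repeat took 46.1% of its counts, against 5.87% and 10.3% in the other *Mmp13*-/- samples and at most 0.0445% in WT. The tissue label was compared with marker genes. Summed odontoblast and pulp markers were at 55075 to 61739 CPM in WT and 17364 to 22919 CPM in *Mmp13*-/-. This sum does not describe each marker, as 3 of the 9 were called lower and 4 higher, with a median log2 fold change of -0.19. The 27 contractile markers of skeletal muscle, a tissue that is not part of the pulp, took 11.4 to 13.3% of the counts in WT and 2.57 to 8.14% in *Mmp13*-/-. The 10 coupling genes took 1.52 to 1.75% of the counts in WT and 0.183 to 0.648% in *Mmp13*-/-. Both shares are of all counts, satellite genes included, and both lowest values are those of sample 6.

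The voltage sensor was represented by 3 genes, and all 3 fell. *Cacna1s* (ENSMUSG00000026407, GRCm38 chr1:136052750-136119822, plus strand) encodes the pore-forming subunit of Cav1.1. It was at 726, 695 and 638 CPM in WT samples 2, 4 and 5 and at 204, 225 and 103 CPM in *Mmp13*-/- samples 1, 2 and 6. The genotypes did not overlap, and sample 6 was the lowest of all. The log2 fold change was -1.95 (SE 0.28, n = 3 per genotype, edgeR adjusted p = 0.00043), or 3.87-fold lower.

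*Cacng1* (ENSMUSG00000020722, chr11:107703218-107716522, minus strand) encodes the gamma subunit of the same channel. Its levels were 115, 101 and 81.2 CPM in WT and 36.7, 41.8 and 17.0 CPM in *Mmp13*-/-, with a log2 fold change of -1.63 (SE 0.29, edgeR adjusted p = 0.00139). *Stac3* (ENSMUSG00000040287, chr10:127501686-127508823, plus strand) encodes the adaptor that brings Cav1.1 to the tubule and is needed for its coupling to the release channel. Its levels were 62.5, 57.9 and 50.5 CPM in WT and 22.0, 23.4 and 10.5 CPM in *Mmp13*-/-, with a log2 fold change of -1.60 (SE 0.26, edgeR adjusted p = 0.000841). In both genes every *Mmp13*-/- sample lay below every WT sample, as it did in 29.1% of all genes tested. The fall of the adaptor was the smallest among the 8 genes called lower. When edgeR tested against a 2-fold change itself, *Cacng1* no longer passed (adjusted p = 0.0534).

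The release channel and its junction were represented by 3 further genes, which also fell. *Ryr1* (ENSMUSG00000030592, chr7:29003344-29125179, minus strand) encodes the skeletal ryanodine receptor, through which the stored calcium leaves. WT samples gave 4720, 4926 and 4263 CPM, and *Mmp13*-/- samples gave 1318, 1372 and 640 CPM. The lowest WT sample was above the highest *Mmp13*-/- sample by a wide margin, and the log2 fold change was -2.06 (SE 0.32, edgeR adjusted p = 0.000693).

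*Jph1* (ENSMUSG00000042686, chr1:16964560-17097889, minus strand) encodes a junctophilin, which ties the reticulum to the tubule membrane. WT levels were 190, 190 and 167 CPM and *Mmp13*-/- levels 55.2, 65.0 and 29.6 CPM (log2 fold change -1.86, SE 0.26, edgeR adjusted p = 0.000358). *Jsrp1* (ENSMUSG00000020216, chr10:80808496-80813498, minus strand) encodes JP-45, a junctional protein that binds the voltage sensor and calsequestrin. It had the most even WT levels of the 10 genes, 90.9, 86.4 and 92.3 CPM, and was at 21.5, 26.4 and 11.1 CPM in *Mmp13*-/-. Its log2 fold change of -2.18 (SE 0.26, edgeR adjusted p = 0.000199) was the most negative among the 10 genes.

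The calcium store was represented by *Casq1* (ENSMUSG00000007122, chr1:172209894-172219868, minus strand), the skeletal calsequestrin that holds calcium inside the reticulum. WT samples held 713, 571 and 593 CPM of it, and *Mmp13*-/- samples 195, 216 and 85.1 CPM. The genotypes did not overlap, and the log2 fold change was -1.92 (SE 0.32, edgeR adjusted p = 0.000921).

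Return of calcium to the store was represented by a pump that fell and an inhibitor that was higher. *Atp2a1* (ENSMUSG00000030730, chr7:126445858-126463108, minus strand) encodes SERCA1, the calcium pump of fast fibres. WT samples reached 10204, 9698 and 9070 CPM, while *Mmp13*-/- samples reached 2870, 3179 and 1200 CPM. The log2 fold change was -1.999 (SE 0.38, edgeR adjusted p = 0.00188). *Atp2a1* alone therefore gave 9657 ± 568 CPM in WT and 2416 ± 1065 CPM in *Mmp13*-/- (SD, n = 3).

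*Sln* (ENSMUSG00000042045, chr9:53850164-53854560, plus strand) encodes sarcolipin, a small membrane protein that inhibits SERCA pumps. It was at 0.826, 1.23 and 1.09 CPM in WT, from 24, 36 and 30 estimated counts, and at 1.96, 1.53 and 11.4 CPM in *Mmp13*-/-, from 62, 46 and 197. Every *Mmp13*-/- sample lay above every WT sample, as in 31.8% of all genes tested. The log2 fold change of 2.20 (SE 0.69, edgeR adjusted p = 0.0228) drew most of its size from *Mmp13*-/- sample 6. Without that sample it was 0.74 and did not pass (edgeR adjusted p = 0.0854), nor did it pass when WT sample 2 was left out (1.95, edgeR adjusted p = 0.0601) or WT sample 4 (2.28, edgeR adjusted p = 0.0572).

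*Pvalb* (ENSMUSG00000005716, chr15:78191114-78206400, minus strand) encodes parvalbumin, a soluble calcium buffer of fast fibres and of some neurons. It varied most within WT, at 1283, 539 and 763 CPM, and was at 454, 579 and 171 CPM in *Mmp13*-/-. *Mmp13*-/- sample 2 lay above WT sample 4, so the genotypes overlapped. The log2 fold change of -1.10 (SE 0.43) did not pass (edgeR adjusted p = 0.0558). It passed without WT sample 4 (-1.39, edgeR adjusted p = 0.0412), without *Mmp13*-/- sample 2 (-1.51, edgeR adjusted p = 0.0151) and with no filter on low counts (-1.19, edgeR adjusted p = 0.000421).

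**Figure D1:**
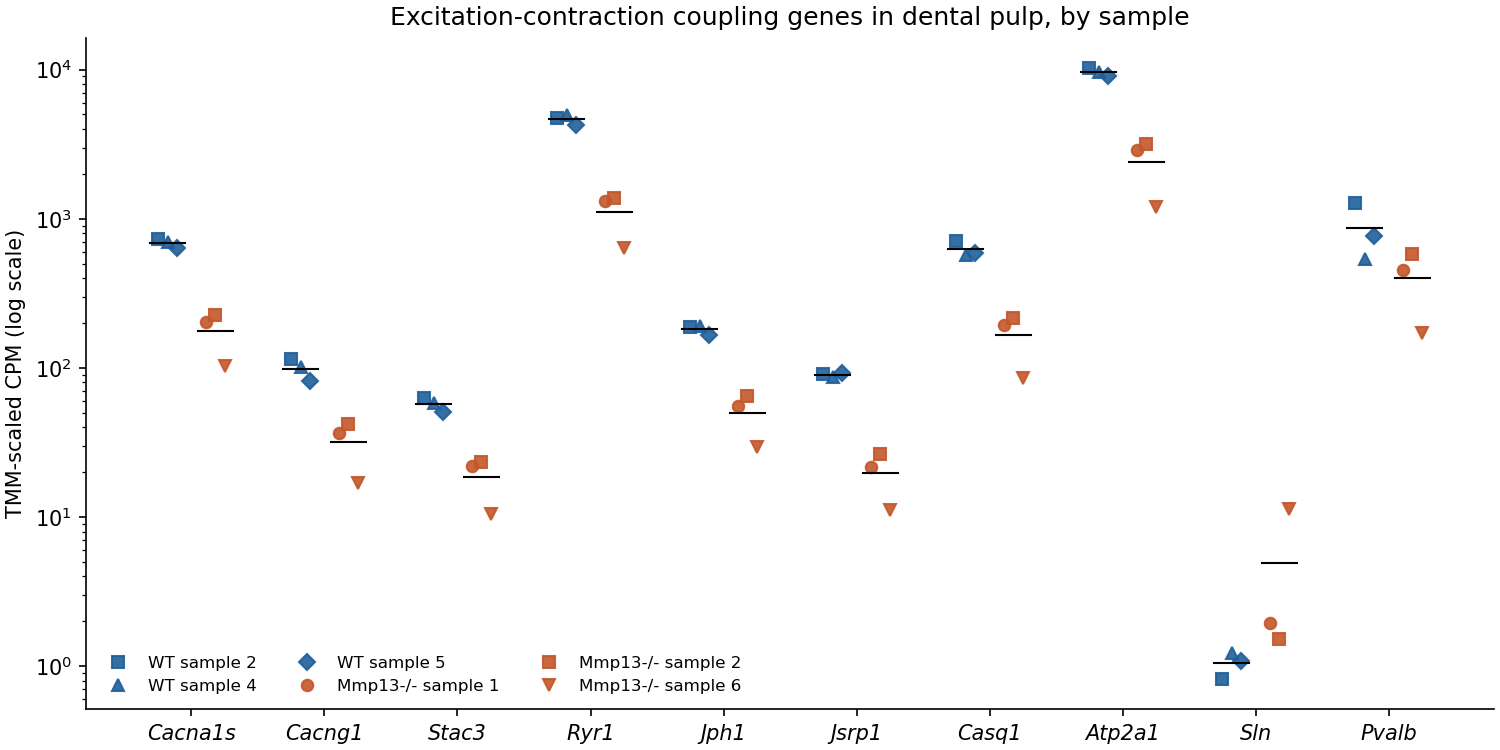
Level of each coupling gene in each sample, in TMM-scaled CPM on a log axis, for WT and *Mmp13*-/- samples. In 8 genes all 3 *Mmp13*-/- points sit below all 3 WT points, *Pvalb* overlaps, and *Sln* is the only gene with the *Mmp13*-/- points above, with sample 6 at 11.4 CPM.

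**Figure D2:**
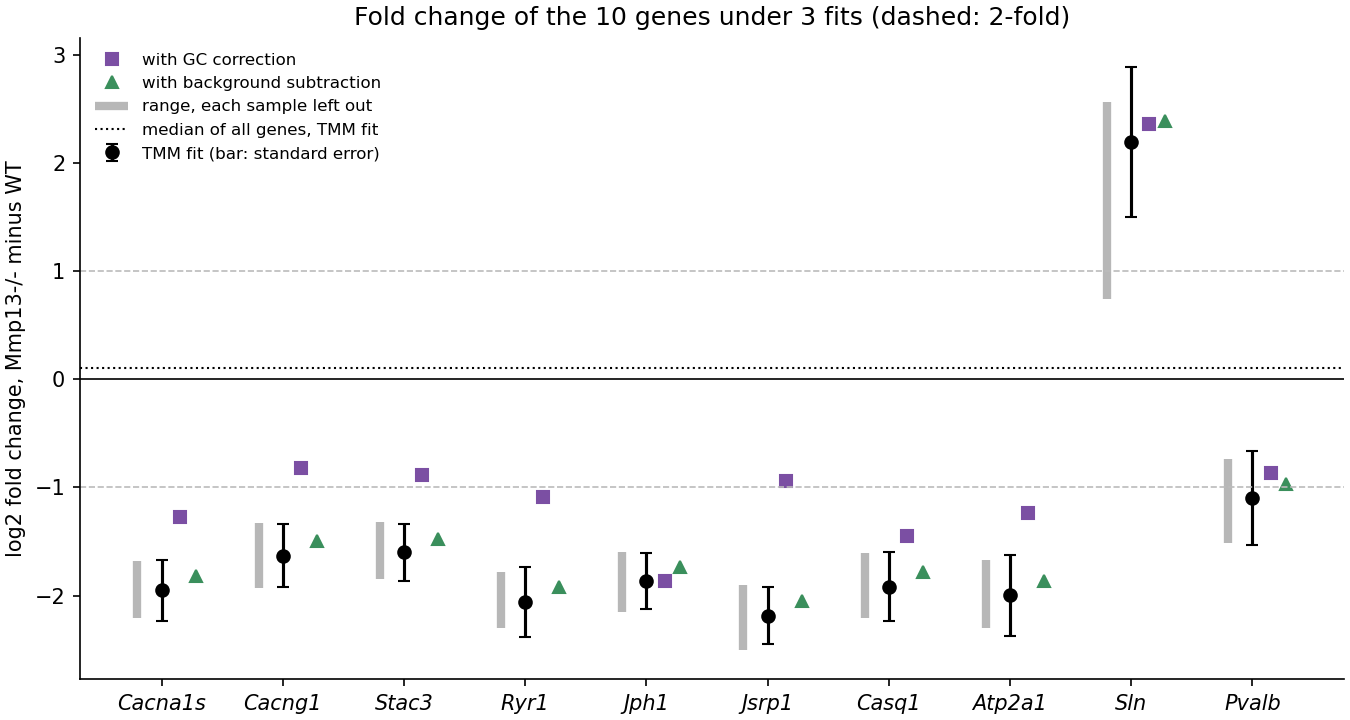
Log2 fold change of each gene, *Mmp13*-/- minus WT, from edgeR with its standard error (circles and bars), with the GC correction (squares), with the receptor density subtracted (triangles) and as the range with each sample left out (grey bars). Dashed lines mark a 2-fold change and the dotted line the median of all genes, 0.10. The 8 genes called lower lie between -2.18 and -1.60, and *Sln* lies at 2.20 with the widest error.

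Since *Mmp13*-/- sample 6 stood apart, the fit was also made without it. The same 8 genes were called lower, at -1.91 for *Jsrp1*, -1.78 for *Ryr1*, -1.68 for *Cacna1s*, -1.67 for *Atp2a1*, -1.60 for *Casq1* and *Jph1*, -1.33 for *Cacng1* and -1.32 for *Stac3*, with edgeR adjusted p of at most 0.000456. The median over the 10 genes was then -1.60, and 9.32% of all genes tested were lower. *Pvalb* was at -0.73 without this sample (edgeR adjusted p = 0.0869). All 8 fold changes were smaller without sample 6 than with it.

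Within the 6 samples, the 8 genes that fell kept close step. Their values in each sample followed the mean profile of the 10 genes with Pearson's r of 0.991 to 0.999. This is a description over 6 samples that share the same genotype split. Each gene is itself part of that mean profile, which favours a high r. *Pvalb* followed it less closely (r = 0.86) and *Sln* ran the other way (r = -0.87). Outside the 10 genes, the closest profiles were those of *Rtn2*, *Ndufa8*, *Pygm*, *Cacng6* and *Dcaf11*, each with r of 0.999 or more. Of these, *Pygm* encodes the glycogen phosphorylase of muscle and *Cacng6* another gamma subunit of calcium channels. As 370 of the 24524 other genes tested had an r over 0.99, the likeness is not particular to these 5.

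Levels between genes were compared per kilobase of exon. In WT the order was *Atp2a1* at 2777 ± 163 CPM per kb, *Pvalb* at 828 ± 367, *Casq1* at 321 ± 39.2, *Ryr1* at 212 ± 15.5 and *Cacna1s* at 105 ± 6.81 (SD, n = 3). Below them came *Cacng1* at 79.3 CPM per kb, *Jsrp1* at 67.4, *Jph1* at 36.5, *Stac3* at 22.4 and *Sln* at 0.797. Only *Cacng1* and *Jsrp1* overlapped with their neighbour in this order among the WT samples. *Atp2a1* ranked 10 among all 24534 genes tested by this measure in WT, while *Sln* ranked 16750. The order of the means was the same in *Mmp13*-/-, from *Atp2a1* at 695 CPM per kb to *Sln* at 3.76, and there the samples of neighbours overlapped for every pair but *Pvalb* and *Casq1*.

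Paralogs of the coupling genes encode forms used by other tissues, and for 4 of the genes the skeletal form was by far the most abundant transcript. In WT, *Ryr1* was at 212 CPM per kb, against 0.0400 for *Ryr2*, the cardiac form, and 0.339 for *Ryr3*. *Cacna1s* was at 105 CPM per kb, against 3.42 for *Cacna1c* and 1.02 for *Cacna1d*, and *Casq1* at 321 against 2.12 for *Casq2*. *Atp2a1* was at 2777 CPM per kb, against 63.3 for *Atp2a2*, the pump of slow and cardiac muscle and of most other cells, and 5.76 for *Atp2a3*.

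Junctophilins and pump inhibitors differed from this. *Jph2*, which is known from heart as well as skeletal muscle, was at 57.1 ± 3.36 CPM per kb in WT and so above *Jph1* at 36.5 ± 2.60 (SD, n = 3). *Jph3* and *Jph4*, junctophilins of neurons, were at 0.791 and 1.22 CPM per kb. *Sln* at 0.797 CPM per kb and *Pln*, which encodes the related inhibitor phospholamban, at 0.873 CPM per kb were both very low.

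Of the 14 paralogs, 4 were called lower and 1 higher, against 9.68% lower and 20.4% higher among all genes tested. *Jph2* fell with a log2 fold change of -2.32 (edgeR adjusted p = 0.000138), *Cacng6* with -2.06 (0.000279), *Stac2* with -1.51 (0.000395) and *Stac* with -1.12 (0.00507). *Ryr2* rose with 2.48 (SE 0.50, edgeR adjusted p = 0.00259), from 33.6, 28.8 and 36.0 estimated counts in WT to 97.2, 122 and 219 in *Mmp13*-/-. The annotated exons of *Ryr2* cover 28790 bases. At the read density of odorant and vomeronasal receptor genes, which pulp is not known to use, *Ryr2* would hold 43.2, 50.4 and 138 counts in *Mmp13*-/- samples 1, 2 and 6. With that density subtracted the log2 fold change of *Ryr2* was 1.66 (edgeR adjusted p = 0.0106). *Atp2a2* was at a log2 fold change of -0.73 and *Cacna1c* at -0.32, neither called.

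The same receptor density was set beside the 10 genes. For *Sln* it corresponds to 1.98, 2.31 and 6.31 counts, against the 62, 46 and 197 found in *Mmp13*-/- samples 1, 2 and 6. For the other 9 genes it corresponds to at most 105 counts, in *Ryr1* of sample 6, which held 11076. With the density subtracted, the same 8 genes were lower and *Sln* was higher.

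Fold changes moved with the GC content of the transcript, and most coupling genes were in the upper GC groups. Among 10 groups of well-expressed genes ordered by GC content, the median log2 fold change ran from 0.76 in the lowest group (up to 41.7% GC) to -1.11 in the highest (from 57.9% GC). The 8 genes called lower had 46.7 to 62.0% GC, and the medians of their GC groups were -0.07 to -1.11, so each lay below its group. *Sln*, also called, had 47.0% GC and lay above its group, at 2.20 against -0.07. Among these 8, *Jph1*, with 46.7% GC, stood farthest from its group, at -1.86 against -0.07.

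After a loess correction of each sample for GC content, 5 of the 10 genes were called, all lower, and the median log2 fold change of the 10 was -1.02. They were *Jph1* at -1.86 (edgeR adjusted p = 0.000592), *Casq1* at -1.45 (0.00582), *Cacna1s* at -1.28 (0.00476), *Atp2a1* at -1.23 (0.0193) and *Ryr1* at -1.09 (0.0151). *Jsrp1* at -0.94, *Stac3* at -0.89 and *Cacng1* at -0.82 kept an adjusted p under 0.05 (0.0196, 0.0194 and 0.0465) but not the 2-fold change. *Sln* was at 2.36 (edgeR adjusted p = 0.0504). With this correction 2.37% of all genes tested were called lower. What part GC content has in the values without correction was not tested.

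**Figure D3:**
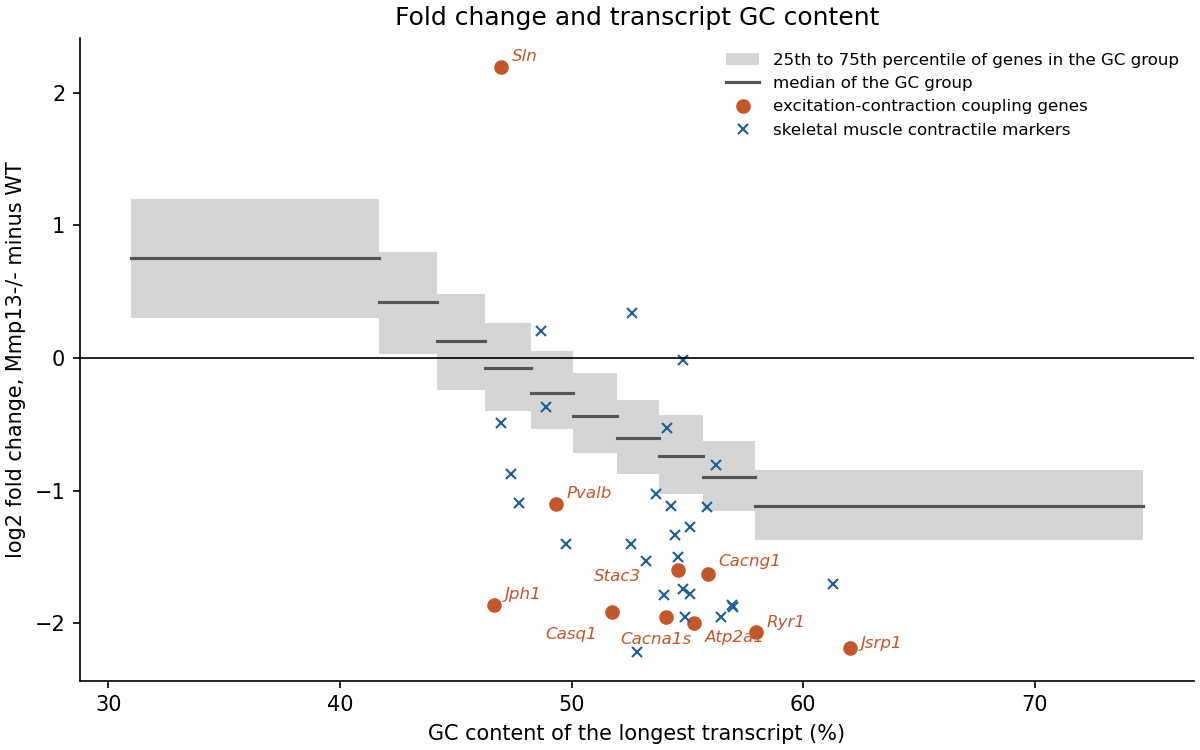
Log2 fold change, *Mmp13*-/- minus WT, against GC content of the longest transcript in percent, for the coupling genes and 27 contractile markers of skeletal muscle. Horizontal lines are medians and grey boxes the 25th to 75th percentiles of 10 groups of genes ordered by GC content; the medians run from 0.76 to -1.11, and the 8 genes called lower lie below them, with *Sln* above.

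Most of the contractile markers of skeletal muscle were called lower too. Of the 27 markers, edgeR called 19 lower, against 9.68% of all genes tested, at a median log2 change of -1.33. The count called higher was 0 (also 0 at an unadjusted p under 0.05, by DESeq2 and by limma). The count called lower was 6 with the GC correction and 6 by the test against a 2-fold change. Fewer genes were called in those 2 fits. Over all genes, edgeR called 7381 (67.8% of them higher) and 7235 without *Mmp13*-/- sample 6 (67.9% higher). The calls were 4935 with the GC correction (88.2% higher) and 3047 by the test against a 2-fold change (78.1% higher). Some markers changed about as much as the coupling genes, such as *Myh4*, a fast myosin, at -2.21 and *Des*, which encodes desmin, at -1.96, while *Mylpf*, a fast myosin light chain, was at 0.34 and *Mb*, myoglobin, at -0.02, neither called. These 4 markers were named after their values were seen. The summed level of the 27 markers was 116562 to 137352 CPM in WT, and samples 1, 2 and 6 of *Mmp13*-/- summed to 67753, 69554 and 31991 CPM. Of 11 fast-fibre markers 9 were lower (median -1.40), which was 6 without *Mmp13*-/- sample 6, 1 with the GC correction and 1 by the test against a 2-fold change. Of 8 slow-fibre markers 1 was lower (median 0.15), which was 2 without WT sample 2 or *Mmp13*-/- sample 2 and 0 without *Mmp13*-/- sample 6, with the GC correction or by the test against a 2-fold change. The difference between the fast and slow lists was not tested. Fast-fibre markers summed to 33802 to 41987 CPM in WT and 7175 to 17241 CPM in *Mmp13*-/-, and slow-fibre markers to 824 to 1004 and 309 to 568 CPM. Most of the slow-fibre sum was *Mybpc1*, the slow-fibre marker called lower, at a mean of 890 CPM in WT and 417 CPM in *Mmp13*-/-. *Myoz2* came next, at means of 15.6 and 18.5 CPM.

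Each coupling gene was therefore also expressed per 1000 counts of these markers in the same sample. *Ryr1* was at 34.4, 42.3 and 35.1 per 1000 in WT and at 19.5, 19.7 and 20.0 per 1000 in *Mmp13*-/-. *Atp2a1* was at 74.3, 83.2 and 74.6 per 1000 in WT and at 42.4, 45.7 and 37.5 per 1000 in *Mmp13*-/-. On this scale *Mmp13*-/- sample 6, which had the lowest CPM in every gene that fell, was close to samples 1 and 2.

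The differences of these log2 ratios between genotypes were -1.05 for *Jsrp1*, -0.91 for *Ryr1*, -0.89 for *Atp2a1*, -0.80 for *Cacna1s*, -0.79 for *Casq1*, -0.71 for *Jph1*, -0.50 for *Cacng1* and -0.46 for *Stac3*. In these 8 genes the genotypes did not overlap, and the share of all genes without overlap on this scale is not given here. A two-sided exact permutation test gave p = 0.1 for each of the 8. This is the smallest that 3 against 3 samples allow (0.111 after Benjamini-Hochberg adjustment over the 10 genes). For *Pvalb* the difference was 0.05 (exact p = 0.9) and for *Sln* it was 2.88 (exact p = 0.1). This exact test therefore cannot place any of these ratios under 0.05, and no other test was run on them.

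The size of these differences depended on which markers were used. *Ttn*, the most abundant marker, made up 44.7 to 46.1% of the marker counts in WT and 54.6 to 56.0% in *Mmp13*-/-. Without it the median difference over the 10 genes went from -0.75 to -0.47, and *Cacng1* overlapped between genotypes. Against the 11 fast-fibre markers alone the median was -0.43, and *Cacng1* and *Stac3* overlapped. *Jsrp1* (-0.73), *Ryr1* (-0.59), *Atp2a1* (-0.57), *Cacna1s* (-0.48), *Casq1* (-0.47) and *Jph1* (-0.39) did not overlap on that scale. *Pvalb* overlapped, and *Sln* (3.20) did not, with *Mmp13*-/- above. The share of all genes without overlap on that scale is not given here either. The ratios were not corrected for GC content. *Ttn* has 47.4% GC, and the median log2 fold change of its GC group was -0.07. After GC correction the median log2 fold change was -0.80 for the 27 markers and -1.02 for the 10 coupling genes. *Jsrp1* (-0.94), *Stac3* (-0.89) and *Cacng1* (-0.82) were then near the median of the markers. *Ryr1*, *Cacna1s*, *Casq1*, *Atp2a1* and *Jph1* were at -1.86 to -1.09. What part GC content has in the ratios was not tested.

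**Figure D4:**
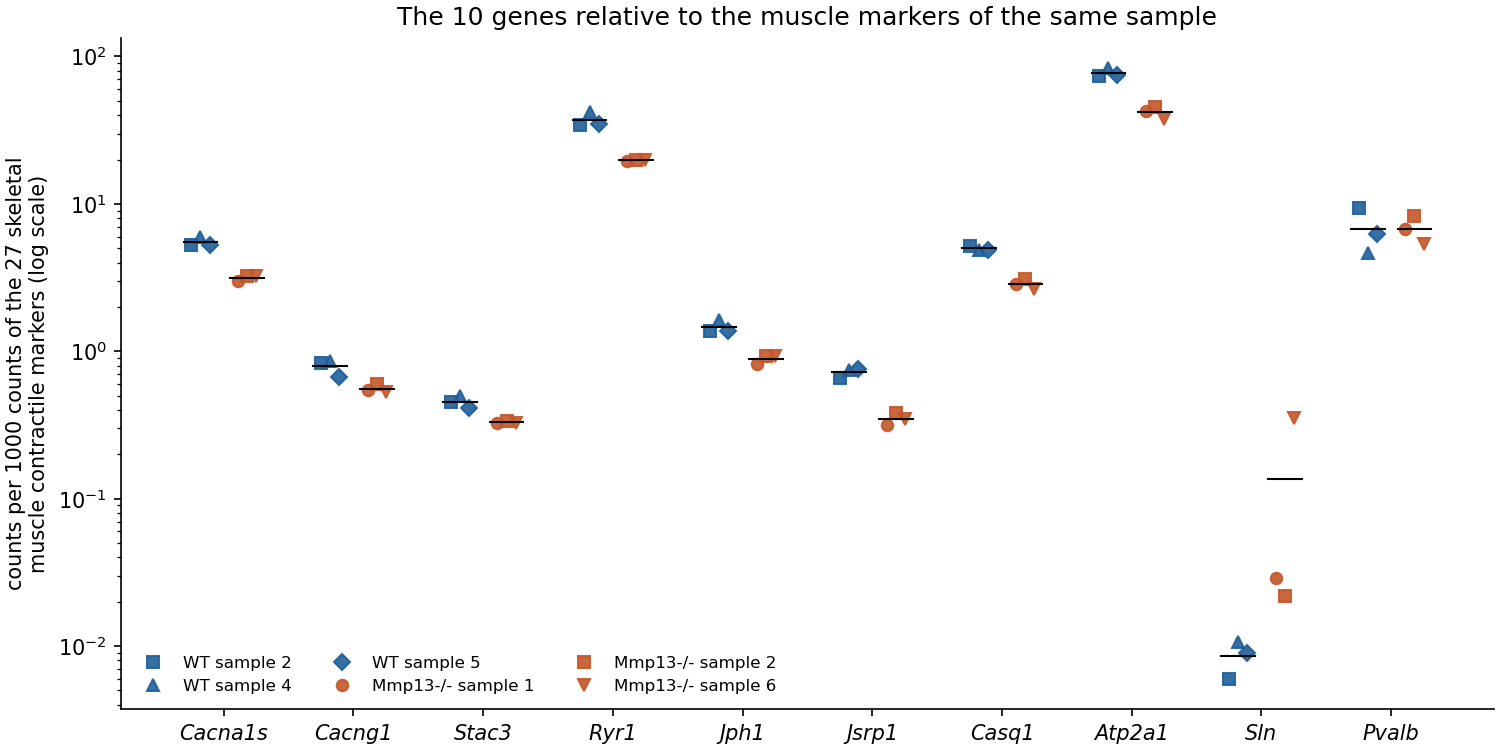
Count of each coupling gene per 1000 counts of 27 skeletal muscle contractile markers in the same sample, on a log axis, with short lines for the mean of each genotype. In 8 genes the *Mmp13*-/- points lie below the WT points, by 0.46 to 1.05 in mean log2 ratio, while *Pvalb* overlaps and *Sln* lies above.

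Other genes of the same pathway showed smaller and mixed changes. Of 60 further genes listed by role, 59 had a row and all 59 were tested (*Strit1* was not analysed here). Of these, 21 were called lower, 7 higher and 31 not, against 9.68% lower and 20.4% higher among all genes, and their median log2 fold change was -0.63. Among 10 voltage sensor and channel subunits 5 were lower and 2 higher. The beta subunit *Cacnb3* was at -1.25 (edgeR adjusted p = 0.000184) and the skeletal beta subunit *Cacnb1* at -1.61 (0.000636), while the beta subunits *Cacnb2* at 1.18 (0.0111) and *Cacnb4* at 1.01 (0.0431) were higher. With the GC correction none of these 4 beta subunits was called. With the receptor density subtracted, *Cacnb4* was not called (0.62, edgeR adjusted p = 0.225), while *Cacnb1*, *Cacnb2* and *Cacnb3* were.

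Among 16 genes of the release channel and the junction, 4 were lower and 2 higher. *Speg*, which encodes a kinase of the triad, was at -2.26 (edgeR adjusted p = 0.000102), *Sypl2*, which encodes mitsugumin-29, at -1.74 (0.000924) and *Tmem38a*, which encodes a counter-ion channel of the reticulum, at -1.51 (0.00215). With *Jph2* these are the 4 that fell. The 2 that were higher were *Ryr2* and *Trdn*, which encodes triadin, an anchor of calsequestrin at the release channel. *Trdn* was at 64.6, 33.8 and 41.8 CPM in WT and 125, 134 and 61.8 CPM in *Mmp13*-/-, with a log2 fold change of 1.20 (edgeR adjusted p = 0.0091). Its genotypes overlapped, its transcript has 36.8% GC, and after the GC correction it was at 0.21 (edgeR adjusted p = 0.452).

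Among 5 genes of calcium storage, *Srl*, which encodes sarcalumenin, fell at -1.64 (edgeR adjusted p = 0.00135), *Hrc*, which encodes a histidine-rich calcium-binding protein of the reticulum, fell at -1.38 (0.00236), and *Calu*, which encodes the widely expressed calumenin, rose at 1.49 (0.000346). *Casq2* (-0.13) and *Calr* (-0.36) were not called. Of the 7 other pump and regulator genes 0 were called in the main edgeR fit, by DESeq2 or by limma. In edgeR 2 of them were lower and 2 higher at an adjusted p under 0.05, but with changes under 2-fold. Their log2 fold changes ran from -0.82 for *Slc8a3*, a sodium-calcium exchanger, to 0.89 for *Pln*. The *Slc8a3* change was past the 2-fold threshold without *Mmp13*-/- sample 2. With upper-quartile factors, total counts or at least 10 counts in every sample, 1 of the 7 genes was called higher. With upper-quartile factors it was *Pln*, at 1.10 (edgeR adjusted p = 0.00336).

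Among 16 genes of membrane excitation and the tubule, 8 were lower and 2 higher. *Bin1*, which shapes tubules, was at -1.68 (edgeR adjusted p = 0.000388) and *Dysf*, a membrane-repair protein, at -1.22 (0.000443). The 2 that were higher, named after their values were seen, were *Chrng*, the fetal subunit of the acetylcholine receptor, at 2.05 (0.0136) from at most 28.4 estimated counts, and *Mtm1*, a lipid phosphatase, at 1.04 (0.00332). *Chrng* was not called after subtraction of the receptor density (edgeR adjusted p = 0.086). Among 5 genes of store-operated calcium entry, *Stim1*, the calcium sensor of the reticulum, was at -1.26 (0.00019) and *Orai2*, a channel subunit, at -1.10 (0.000545), with 3 not called. After the GC correction 11 of the 59 genes were called lower and 5 higher.

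The genes of the wider pathway that were higher depended more on single samples than those that were lower. The count called higher went from 7 to 3 without WT sample 4 and to 4 without *Mmp13*-/- sample 2, while 19 to 23 genes were called lower whichever sample was left out. *Cacnb2* was not called without WT sample 5 (0.81), *Trdn* without WT sample 4 (0.97) or *Mmp13*-/- sample 2 (0.95), and *Chrng* without WT sample 2 (1.80) or WT sample 4 (2.03). *Mtm1* was not called without WT sample 4 (0.78), *Mmp13*-/- sample 1 (0.89) or *Mmp13*-/- sample 2 (0.98). *Cacnb4* was called in only 2 of the 6 cases and was at 0.70 without WT sample 4. Of the genes named as lower, *Orai2* lost its call without *Mmp13*-/- sample 6 (-0.99).

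Markers of other cell types moved with genotype as well, and their part in the values above was not tested. All 7 myeloid markers tested were higher (4 without WT sample 2), against 20.4% of all genes tested. The myeloid sums were 112 to 226 CPM in WT and 611 to 1462 CPM in *Mmp13*-/-, while *Itgam* was at or under 3 counts in every sample. Of 5 erythroid markers 4 were higher, with sums of 539 to 862 CPM in WT and 1596 to 3075 CPM in *Mmp13*-/-. Cardiac markers were at only 7.09 to 10.4 CPM in WT and 9.14 to 19.2 CPM in *Mmp13*-/-, with 2 of 6 higher and at most 1 higher whichever sample was left out. Smooth muscle and mural markers summed to 524 to 578 and 424 to 521 CPM, with 3 of 8 lower and 1 higher. At an edgeR adjusted p under 0.05 and any fold change, 3 of these 8 were lower and 4 higher. *Smtn*, the largest part of this sum in WT, went from a mean of 232 to 80.0 CPM, and *Rgs5* from 76.7 to 216 CPM. Genes of the myogenic program summed to 275 to 339 and 136 to 233 CPM, with 3 of 7 lower.

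Of the 9 odontoblast and pulp markers 3 were lower and 4 higher. Epithelial and ameloblast markers summed to 4580 to 5543 CPM in WT and 4138 to 5296 CPM in *Mmp13*-/- (2 of 6 lower), and endothelial markers to 179 to 211 and 145 to 202 CPM (1 of 5 higher). Neuron markers summed to 21.3 to 24.0 and 24.1 to 34.0 CPM (4 of 7 higher). Schwann cell markers summed to 78.0 to 276 and 82.2 to 101 CPM, with 0 of 5 called by edgeR, DESeq2 or limma, 3 lower at an unadjusted p under 0.05, and 3 called lower without WT sample 2.

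Some reads of these genes could belong to genes annotated on the same stretch. *Ryr1*, *Cacna1s*, *Casq1* and *Jph1* overlap antisense genes, of which *Gm37759* at *Cacna1s* had the most, at up to 1326 estimated counts. The end of *Atp2a1* overlaps *Rabep2* on the opposite strand, which had up to 2318 counts against at least 20775 for *Atp2a1*. Whether the counting used strand is not stated, so for those stretches the sources cannot be told apart.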

How the data were processed

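RNA was sequenced from dental pulp of 3 WT and 3 *Mmp13*-/- samples, grouped by the genotype in their labels. The deposited table holds estimated counts per gene, which the authors made from aligned reads in Strand NGS (mm10 and DESeq are named in the submitters' processing notes), and log2 values that the authors normalized with size factors, set to a threshold of 1 and centred on each gene's median. Those log2 values were computed again from the counts to within 0.01. The aligner's settings and the annotation release are not given in the sources used here.

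The rounded estimated counts were analysed with edgeR 4.0.16 under R 4.3.3 (TMM factors, filterByExpr, quasi-likelihood test, genotype only), with Benjamini-Hochberg adjustment over all 24534 genes tested. Library totals were 21561236 to 29980121. A floor of 3 counts corresponds to 0.0950 to 0.173 CPM and covers counting error only. Pairs of samples of one genotype differed by far more than counting error, with a chi-square per degree of freedom of 27.0 or more, so no library was counted as a copy of another. Exon length, GC content and position came from GENCODE M21 (GRCm38), matched for 99.8% of genes. Satellite genes are 13 genes matching major satellite sequence over at least 50% of their length, and the receptor density is taken over 1454 receptor genes. The GC correction is a loess fit of each sample (span 0.4, genes with a mean log2 CPM over 3) used as offsets. Both fits were run on simulated counts with known changes. Those counts held no GC trend between samples, so they cannot test how well the GC correction removes one. Ratios to muscle markers were tested by exact permutation.

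Alternatives were other scaling factors (RLE, upper-quartile, total counts, TMM without abundant genes), other filters, DESeq2 1.42.0, limma 3.58.1 on the log2 values, the study's own procedure, a test against a 2-fold change, the GC correction, background subtraction, other muscle references and each sample left out in turn. The text names the 10 genes, their paralogs, *Mmp13*, up to 4 called genes of each pathway list by smallest adjusted p, and the 5 genes closest in profile. Some genes that this rule names are not reported here. Genes, lists and tests were chosen with earlier results of these data known.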

Additional observations from a re-analysis of the deposited data

How the results depend on the processing

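All 10 coupling genes kept their direction under all 18 alternatives, and *Ryr1*, *Cacna1s*, *Casq1*, *Atp2a1* and *Jph1* were called in every one. Of the 10 genes, 5 were called with the GC correction (9 without it), and their median log2 fold change was then -1.02. With a test against a 2-fold change *Sln* and *Cacng1* were not called, which left 7. *Sln* was also not called by limma (adjusted p = 0.117) or by the study's procedure (q = 0.0584). Calls over all genes went from 7381 to 14325 with no filter, 4666 with at least 10 counts in every sample, 15407 by the study's procedure and 3047 by the test against a 2-fold change, and were 7146 to 8751 with 1 sample left out. Of the other pathway genes, 28 were called, 13 by the test against a 2-fold change and 16 with the GC correction. The median log2 ratio to the muscle markers was -0.75, -0.43 against fast-fibre markers and -0.47 without *Ttn*, and -0.78 to -0.69 with 1 sample left out. Among calls, 67.8% were higher, 81.4% with upper-quartile factors, which moved the median of all genes by 0.21, 78.6% with no filter, 80.0% by the study's procedure, 78.1% by the test against a 2-fold change and 88.2% with the GC correction. The cause of these moves was not tested. Depth limits *Sln*, with 24 to 36 counts in WT. No paired analysis was possible because the genotypes share only the replicate number 2.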
